A study of Mus musculus with 816 samples.

Results

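The 7 immunity-related GTPases described here were Irgm1, Irgm2, Igtp, Iigp1, Tgtp1, Tgtp2 and Ifi47. They were taken by symbol from the expression tables of the microglia panel and made up 7 of 45581 genes in the table of cultures and 7 of 29858 genes in the table of mice. Immunity-related GTPases (IRGs) are interferon-inducible proteins of cell-autonomous defence, which gather on the vacuoles that enclose intracellular parasites and bacteria and break them open. Irgm1, Irgm2 and Igtp (Irgm3) are the GMS regulators of the family: they sit on the membranes of the cell's own organelles and hold the effectors inactive there. Iigp1 (Irga6), Tgtp1 and Tgtp2 (Irgb6) and Ifi47 (Irgd) are GKS effectors, which load onto unprotected vacuoles together with guanylate-binding proteins. In macrophages and microglia interferon gamma is the classical inducer of the family, in part through the transcription factor Irf1, and type I interferons act in part through Stat2 and Irf9.

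The study profiled 784 cultures of primary neonatal mouse microglia from a commercial supplier under 98 combinations of stimulus and time, and microglia from 32 C57BL/6 mice. Cultures were plated in 96-well plates and given medium alone (untreated) or medium with a stimulus for 4, 24 or 72 h, and their strain and genotype were not given in the sources used here. The stimuli that matter most here were interferon gamma (IFNg) and interferon beta (IFNb), each at 0.0001 ug/ul, interferon alpha (IFNa) at 0.0008 ug/ul, lipopolysaccharide at 0.0001 ug/ul (LPS_hi) or 1e-05 ug/ul (LPS_lo), poly(I:C) (IC) at 0.2 ug/ul and the Toll-like receptor 2 agonist P3C at 0.001 ug/ul. Female mice aged 2 months received LPS at 2 mg/kg into the peritoneum (n = 4) or PBS (n = 4) 4 h before collection, and in the aging comparison naive males of 22 months (n = 13) were set against naive males of 2 months (n = 11). Sample names of the injected mice and of part of the aging mice hold the word vehicle. What it refers to was not explained in the sources used here. Mouse microglia were separated with CD11b magnetic beads, so other CD11b-positive cells could pass with them, and no genetic change is given for any of them.

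Expression was read at the 3′ ends of transcripts and is given as counts per 1000000 mapped reads (CPM) without division by transcript length, so each gene is compared with itself across samples and not with another gene. Estimated depth ranged from 1.00 to 38.2 M reads per culture (median 4.67 M; M stands for 1000000) and from 2.36 to 7.78 M reads per mouse (median 4.08 M), and 107 cultures lay under 2 M reads. The 11 microglial markers summed to a median of 8122 CPM in the 24 h untreated cultures and 55650 CPM in PBS mice, and none of them had a median of 0 in either group. Markers of T cells, natural killer cells and B cells had summed medians under 1 CPM in the 24 h untreated cultures, and the sums for other cell types had medians from 1.38 CPM (neutrophils) to 74.7 CPM (perivascular macrophages, with Cd163 and Lyve1 at a median of 0), among them 48.3 CPM for fibroblasts, with a highest culture of 385 CPM. The microglial sum had lower medians with stimuli at 24 h, 4875 CPM with IFNg, 3704 CPM with P3C and 2979 CPM with LPS_hi, and the part of these shifts in the results was not tested. A 24 h IC culture, replicate 5, lay nearer to the mean of the P3C cultures than to the mean of the other IC cultures over all genes, and results with IC are given with and without it. Nothing in the labels says that cultures of a condition came from separate animals, so p-values between cultures measure the spread between wells.

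Irgm1, Tgtp1, Tgtp2 and Ifi47 lie within 1 stretch of mouse chromosome 11 and Igtp and Irgm2 within another, at chr11:48861968-48871683 (Irgm1, minus strand), chr11:48985327-48994172 (Tgtp1, minus), chr11:49057194-49064206 (Tgtp2, minus), chr11:49076587-49096974 (Ifi47, plus), chr11:58199556-58207591 (Igtp, plus) and chr11:58199618-58222782 (Irgm2, plus) of GRCm38. All 7 genes are annotated as protein-coding, and Iigp1 lies on another chromosome. Tgtp1 and Tgtp2 are near-copies: 84.4% of the 31-base words in Tgtp1 transcripts and 90.5% of those in Tgtp2 transcripts also occur in other genes, almost all in the other copy. Reads of Tgtp1 and Tgtp2 can therefore be split between them arbitrarily, and their summed CPM (Tgtp1+Tgtp2) is used below wherever a level is described. Igtp and Irgm2 overlap on the same strand and share fewer words, 15.9% of Igtp and 10.7% of Irgm2, and the figure for Irgm1, Iigp1 and Ifi47 was at most 6.9%.

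The promoters are shown because the members moved together and because interferon signals reach genes through short DNA elements. The interferon-stimulated response element (ISRE) binds Irf1 and complexes that hold Stat2 and Irf9, and the gamma-activated site (GAS) is an element of interferon gamma signalling. The windows below are 120 bases each from RefSeq promoter sequences (GRCm38.p6), read 5′ to 3′ on the strand of the gene, with matches to GAAA, 2 bases of any kind and GAAA on either strand (ISRE) and to TTC, 3 bases of any kind and GAA (GAS) in capitals. They cover chr11:48871421-48871540 (Irgm1), chr11:48992247-48992366 (Tgtp1), chr11:49064213-49064332 (Tgtp2), chr11:58199436-58199555 (Igtp), chr11:58214857-58214976 (Irgm2) and chr11:49076467-49076586 (Ifi47). Each window precedes a single RefSeq start of its gene, and other starts were not examined. For Irgm1, Tgtp1 and Irgm2 the window lies inside the gene span given above, which comes from another annotation.
Irgm1: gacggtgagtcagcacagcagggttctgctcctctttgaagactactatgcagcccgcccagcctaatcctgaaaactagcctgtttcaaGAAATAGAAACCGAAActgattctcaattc
Tgtp1: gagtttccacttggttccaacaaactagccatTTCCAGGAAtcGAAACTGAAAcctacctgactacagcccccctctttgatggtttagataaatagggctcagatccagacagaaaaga
Tgtp2: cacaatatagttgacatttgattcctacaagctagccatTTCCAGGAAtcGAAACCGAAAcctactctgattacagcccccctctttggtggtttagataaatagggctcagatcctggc
Igtp: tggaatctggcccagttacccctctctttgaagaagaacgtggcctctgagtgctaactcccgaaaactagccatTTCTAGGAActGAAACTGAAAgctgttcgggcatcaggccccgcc
Irgm2: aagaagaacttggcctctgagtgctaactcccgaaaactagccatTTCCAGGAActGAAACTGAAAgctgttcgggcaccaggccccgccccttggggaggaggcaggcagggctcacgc
Ifi47: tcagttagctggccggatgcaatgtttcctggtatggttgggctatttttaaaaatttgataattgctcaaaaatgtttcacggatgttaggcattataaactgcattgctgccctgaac
Of 32851 RefSeq promoters spanning 250 bases before to 50 bases after a start, 3.44% held the ISRE letters, 8.30% the GAS letters and 0.454% both. Among the 6 members whose promoters are shown, 5 held the ISRE letters, all but Ifi47, and 4 held both motifs. The promoter of Iigp1 is not reported here and was not counted. In Tgtp1, Tgtp2, Igtp and Irgm2 the GAS letters stood 2 bases before the ISRE letters, an arrangement found in 5 of 32851 promoters, the fifth being that of Gm12185, which overlaps Tgtp1 on the same strand. The arrangement was noticed after the sequences had been seen. The promoters of Igtp and Irgm2 share an identical run of 61 bases and those of Tgtp1 and Tgtp2 one of 27 bases, and across these pairs Tgtp1 and Irgm2 share 20 bases and Tgtp2 and Irgm2 17 bases, so the 4 windows are not separate occurrences. A match is a description of letters and does not show that a factor binds there.

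The levels of untreated cultures are the base of most comparisons below. In the 40 untreated cultures at 24 h, Irgm1 ran from 2.24 to 49.1 CPM (median 13.9), Irgm2 from 2.84 to 34.5 CPM (median 10.9) and Igtp from 6.11 to 62.6 CPM (median 20.5). Iigp1 ran from 0 to 10.3 CPM (median 3.24), Tgtp1+Tgtp2 from 0.155 to 21.1 CPM (median 3.92) and Ifi47 from 13.5 to 131 CPM (median 52.2). The spread among untreated wells was therefore wide, and it enters the error of every comparison with them. Between 72 h and 24 h untreated cultures Ifi47 alone was called, lower at 72 h by a log2 difference of -1.21, where 1.1% of all genes tested were called higher and 6.23% lower. A call means an adjusted p under 0.05 in a limma fit of log2(CPM + 1) across 16935 genes, together with a difference of at least 1 on the log2 scale in cultures. Plates for 24 h and 72 h hardly overlapped, so time and plate cannot be told apart.

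**Figure D1:**
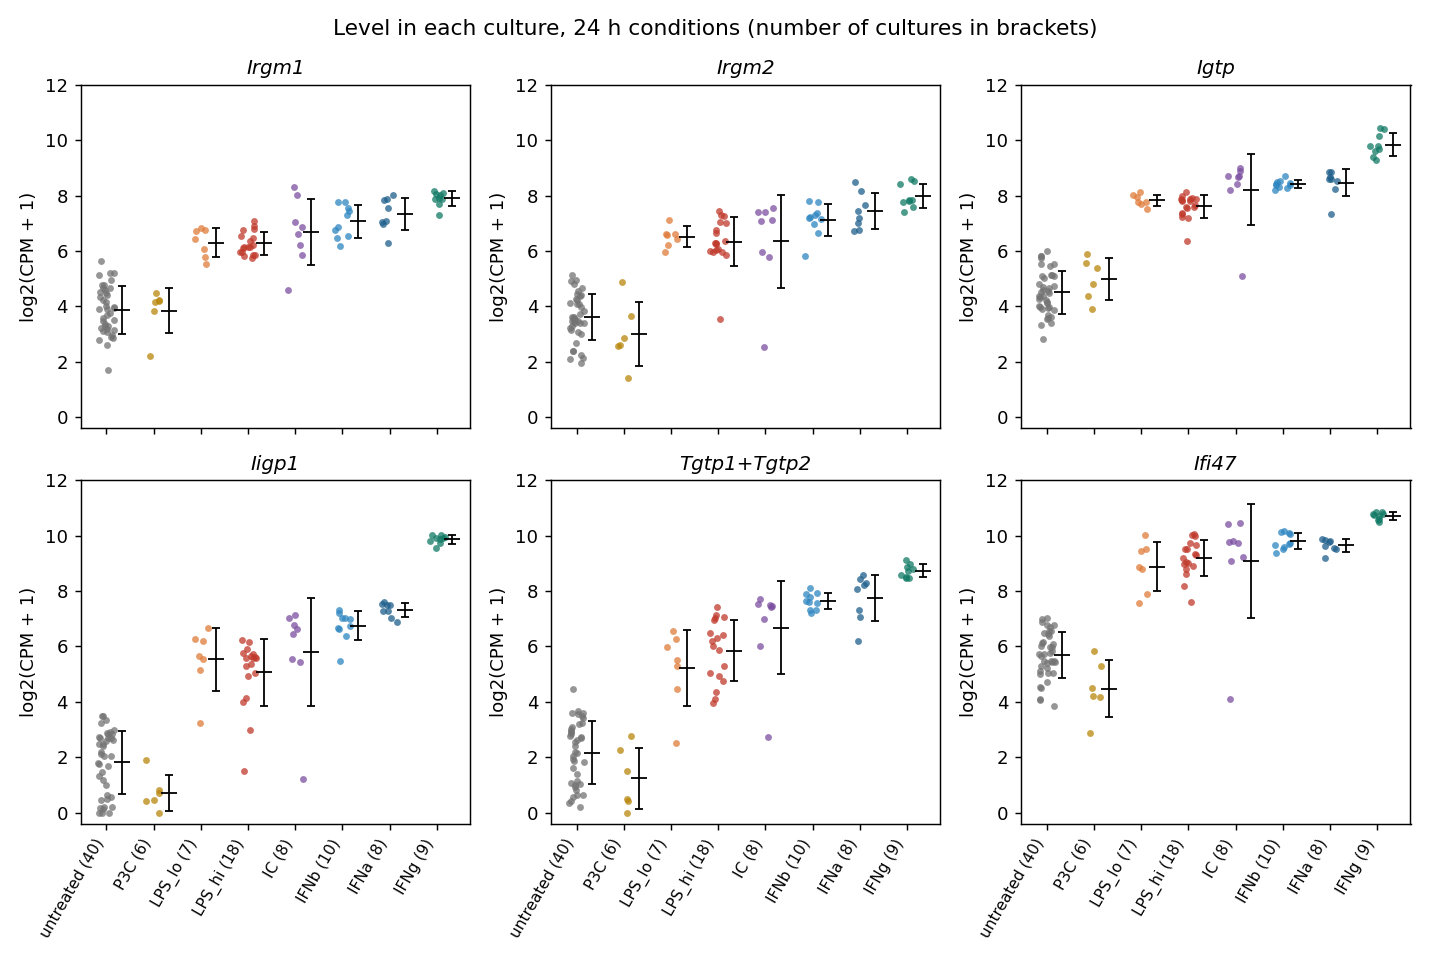
CPM of the regulators Irgm1, Irgm2 and Igtp and the effectors Iigp1, Tgtp1+Tgtp2 and Ifi47 in 24 h cultures, on a log2(CPM + 1) axis, where each point is a culture and each bar is a group mean ± SD. The 9 IFNg cultures lie above every untreated culture in all 6 panels, the P3C cultures overlap the untreated ones, and 1 IC culture lies far below the other 7.

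IFNg raised all 7 members at 24 h, against a background of 4.4% of genes called higher and 3.66% called lower. Iigp1, the effector whose oligomers coat the parasite vacuole, ran from 749 to 1041 CPM in the 9 IFNg cultures (median 964), a log2 rise of 8.05 ± 0.446 (SE, adjusted p = 4.7e-57). Tgtp1+Tgtp2, which mark vacuoles for destruction, ran from 354 to 557 CPM (median 421), a rise of 6.56 ± 0.419. The lowest IFNg culture stood far above the highest of the 40 untreated cultures for both effectors. Ifi47 ran from 1451 to 1863 CPM (median 1708) and rose by 5.02 ± 0.426 on the log2 scale. Among the regulators, Igtp, which also sits on lipid droplets and the endoplasmic reticulum, ran from 624 to 1386 CPM (median 886), with a log2 rise of 5.34 ± 0.307. Irgm1, known for its role in autophagy and mitochondrial quality control, ran from 158 to 286 CPM (median 243) and Irgm2, a regulator at the Golgi, from 168 to 390 CPM (median 230). Their log2 rises were 4.03 ± 0.302 and 4.37 ± 0.376. No IFNg culture overlapped the untreated range for any of these genes, and within the 3 plates that held both groups the Iigp1 difference ran from 7.46 to 9.20.

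Type I interferons also raised all 7 members in limma, with 3.22% of genes called higher and 7.87% lower under IFNa and 3.46% higher and 3.81% lower under IFNb. The exact rank-sum test did not call Tgtp1 alone with either of them. Under IFNb, Iigp1 ran from 43.3 to 160 CPM (median 116.7, n = 10) and rose by 4.93 ± 0.427 on the log2 scale. Under IFNa it ran from 116.8 to 191 CPM (median 166, n = 8), a rise of 5.50 ± 0.468. Both ranges lay above all untreated cultures and below all IFNg cultures. Tgtp1+Tgtp2 ran from 147 to 276 CPM with IFNb and from 71.7 to 381 CPM with IFNa, log2 rises of 5.47 ± 0.402 and 5.60 ± 0.44. Ifi47 reached a median of 836 CPM with IFNb (lowest 659, highest 1160) and 839 CPM with IFNa (lowest 579, highest 942). The regulators rose by between 3.19 (Irgm1, IFNb) and 3.97 (Igtp, IFNa) on the log2 scale. No member was called between IFNa and IFNb by limma, 1 had an unadjusted p under 0.05, and 0.201% of genes were called higher and 0.449% lower with IFNa. For Iigp1 that difference was 0.57 ± 0.573 (adjusted p = 0.87), and the pair shared no plate, so a difference between them and between plates cannot be told apart.

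Set directly against the type I interferons, IFNg gave higher Iigp1 and Igtp. Against IFNb, 2.31% of genes were called higher and 1.52% lower with IFNg, and Iigp1 was higher by 3.12 ± 0.555 on the log2 scale (adjusted p = 3.5e-06) and Igtp by 1.43 ± 0.383 (adjusted p = 0.0072). Within the 2 plates that held both stimuli the Iigp1 difference was 2.63 and 2.86 and that of Igtp 1.10 and 1.79. Against IFNa, where 5.52% of genes were called higher and 2.06% lower, Iigp1 was higher by 2.55 ± 0.587 (adjusted p = 0.0007) and Igtp by 1.38 ± 0.405 (adjusted p = 0.013). IFNg and IFNa shared no plate at 24 h, so a difference between these stimuli and between plates cannot be told apart. Their doses also differed, at 0.0001 ug/ul for IFNg and 0.0008 ug/ul for IFNa. Differences for Irgm1, Irgm2, Ifi47 and Tgtp1+Tgtp2 ran from 0.55 to 1.09 in the 2 comparisons and missed the threshold, with adjusted p from 0.26 to 0.61, though with the 2 groups alone Ifi47 was called against IFNa and Tgtp2 against IFNb. The table also called Tgtp1 alone higher with IFNg in both comparisons, by 1.88 against IFNb and 3.15 against IFNa, but the split of reads between Tgtp1 and Tgtp2 is uncertain and their sum was not called. The 2 comparisons share the IFNg cultures.

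Poly(I:C) and LPS raised the members as well, and P3C did not. In the 8 IC cultures Iigp1 ran from 1.33 to 140 CPM (median 92.6), Tgtp1+Tgtp2 from 5.66 to 210 CPM (median 173) and Ifi47 from 16.2 to 1409 CPM (median 868). The lowest value of each belonged to replicate 5, the culture that resembled P3C, and the other 7 cultures held at least 42.4 CPM of Iigp1 and 544 CPM of Ifi47. All 7 members were called higher with IC by limma, with and without that culture, and 3 by the exact rank-sum test, against 2.89% of genes called higher and 6.1% lower. Log2 rises with it ran from 2.74 ± 0.395 (Irgm2) to 4.51 ± 0.44 (Tgtp1+Tgtp2).

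In the 18 LPS_hi cultures at 24 h, Iigp1 ran from 1.8 to 75.1 CPM (median 46.7), Igtp from 81.3 to 281 CPM (median 212) and Ifi47 from 193 to 1068 CPM (median 606). Here Igtp and Ifi47 lay above every untreated culture, and the lowest Iigp1 values overlapped the untreated range. All 7 members were called higher (background 5.25% higher and 10.9% lower), with log2 rises from 2.40 ± 0.233 (Irgm1) to 3.69 ± 0.323 (Tgtp1+Tgtp2) when Tgtp is summed, and 1.03 ± 0.293 for Tgtp1 alone, which the exact rank-sum test did not call. Within the 6 plates that held both groups the Iigp1 rise ran from 0.94 to 4.81, and whether plates differed beyond the spread of wells was not tested. LPS_lo, at the lower dose, raised 6 members (background 4.15% higher and 10.9% lower), and between the doses at 24 h no member was called by limma and 1 had an unadjusted p under 0.05, where 0.248% of genes were higher and 0.0295% lower with LPS_hi. For Irgm1 the difference between doses was -0.03 ± 0.365 and for Iigp1 -0.47 ± 0.538.

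No member was called by limma in the 6 P3C cultures (background 3.22% higher and 16.9% lower), 2 had an unadjusted p under 0.05 in the limma fit, and none was called by an exact rank-sum test with Bonferroni adjustment. Iigp1 ran from 0 to 2.77 CPM (median 0.506), Igtp from 14 to 58.9 CPM (median 33.9) and Ifi47 from 6.27 to 55.5 CPM (median 19.5). The Ifi47 difference from untreated was -1.22 ± 0.505 with adjusted p = 0.064, and it was called lower when the 2 groups were fitted alone (adjusted p = 0.005). P3C cultures overlapped untreated cultures for each member.

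The members were already high after 4 h of LPS_hi. In the 7 LPS_hi cultures at 4 h, Irgm1 ran from 148 to 359 CPM (median 167), Irgm2 from 229 to 572 CPM (median 283) and Igtp from 448 to 976 CPM (median 677). Among the effectors Iigp1 ran from 55.5 to 279 CPM (median 86.1), Tgtp1+Tgtp2 from 71.5 to 171 CPM (median 142) and Ifi47 from 1316 to 2083 CPM (median 1800), its highest median of all conditions. Against 24 h untreated cultures, since no untreated culture is labelled 4 h, all 7 members were called higher (background 5.45% higher and 23.8% lower). Time in culture and stimulus cannot be told apart in that comparison. The rises on the log2 scale ran from 3.81 ± 0.336 for Irgm1 to 5.03 ± 0.473 for Ifi47 with Tgtp summed, at 3.41 ± 0.423 for Tgtp1 alone, and all 7 calls remained with the 4 h CCL2 and CCL7 cultures as the control. Tgtp1 alone was not called by the exact rank-sum test. Against 24 h of LPS_hi the 4 h cultures were higher in Irgm2 by 2.05 ± 0.454, Igtp by 1.82 ± 0.371, Iigp1 by 1.68 ± 0.538, Ifi47 by 1.54 ± 0.514 and Irgm1 by 1.41 ± 0.365, where 3.71% of genes were called higher and 11% lower at 4 h. Tgtp1+Tgtp2 differed by 1.12 ± 0.506 (adjusted p = 0.12). Ifnb1, the gene for interferon beta, ran from 10.9 to 33.3 CPM at 4 h of LPS_hi (median 20.1), and its median was 0 at 24 h of LPS_hi and in untreated cultures. Ifng and Ifna4 were at 0 in every culture of these 3 groups.

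ATP, an extracellular danger signal, was added to LPS_hi for 4 h in 6 cultures and went with lower Tgtp, while Irgm1 and Irgm2 lay near their levels with LPS_hi alone. Tgtp1+Tgtp2 ran from 6.25 to 46.7 CPM with ATP (median 39.5), below every LPS_hi culture, a log2 difference of -2.14 ± 0.633 (adjusted p = 0.04, background 1.26% higher and 0.596% lower). Iigp1 ran from 2.9 to 59.9 CPM (median 28.2), a difference of -2.22 ± 0.673 (adjusted p = 0.051), which was called with plate as a factor (adjusted p = 0.018). Tgtp2 alone was called with ATP in the reported fit but not without cultures under 2 M reads (-1.91, adjusted p = 0.15), where Tgtp1 was. Irgm1 ran from 149 to 269 CPM and Irgm2 from 198 to 401 CPM, with differences of -0.13 ± 0.456 and -0.10 ± 0.567. Those 2 genes overlapped LPS_hi alone almost completely. Igtp and Ifi47 were lower with ATP on both plates that held the 2 groups, and neither was called. The lowest and highest within-plate differences were -0.94 and -0.70 for Igtp and -1.25 and -0.70 for Ifi47. Ifnb1 moved the other way and was called higher with ATP, from 45.2 to 147 CPM (median 65.9). In limma, norepinephrine with LPS_hi at 4 h gave no member call and 2 members at an unadjusted p under 0.05 (background 0.886% higher and 0.502% lower), and nicotine gave none at either level (background 0.862% higher and 0.218% lower). Ifnb1 ran from 0.329 to 5.15 CPM with norepinephrine (median 2.31), and Iigp1 from 0.658 to 185 CPM (median 76.4).

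**Figure D2:**
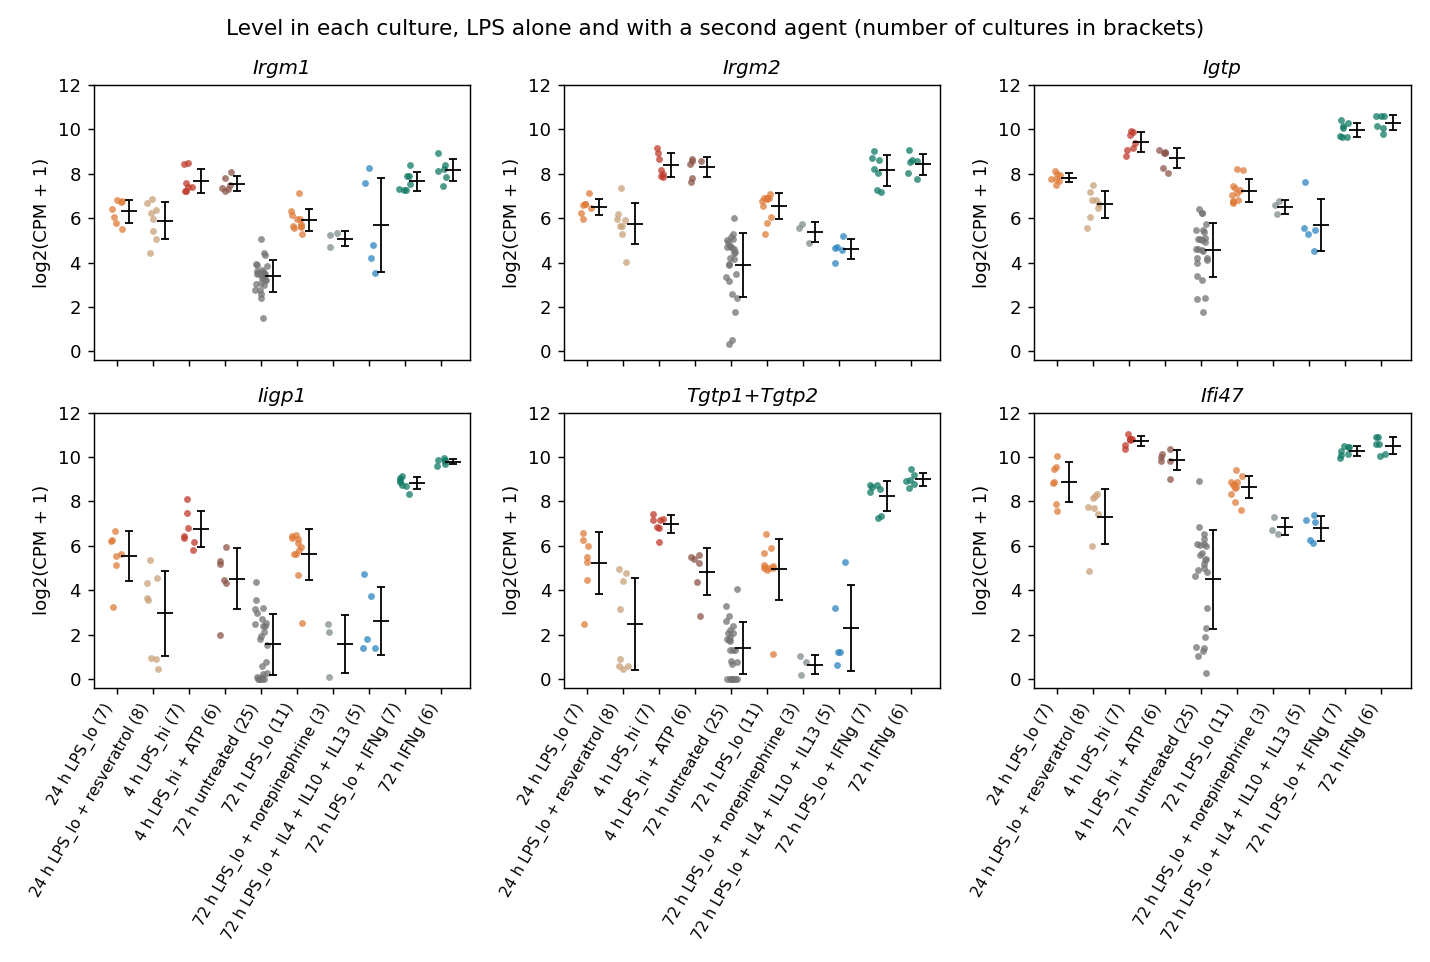
CPM of the members on a log2(CPM + 1) axis in cultures with LPS alone or with a second agent, each point a culture and each bar a group mean ± SD. Iigp1 and Tgtp1+Tgtp2 drop with resveratrol, norepinephrine at 72 h and IL4 + IL10 + IL13, and all regulators rise with IFNg.

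Resveratrol, a plant polyphenol, was added to LPS_lo for 24 h in 8 cultures. Iigp1 ran from 0.369 to 39.5 CPM (median 11.3) against 8.39 to 101 CPM (median 49.1) in the 7 cultures with LPS_lo alone, and Tgtp1+Tgtp2 from 0.369 to 30.2 CPM (median 4.38) against 4.65 to 94.3 CPM (median 44.2). The ranges overlapped for both. Iigp1 fell by 2.57 ± 0.626 on the log2 scale (adjusted p = 0.011) and Tgtp1+Tgtp2 fell by 2.74 ± 0.588 (adjusted p = 0.0016), where 0.437% of genes were called higher and 0.378% lower. Ifi47 differed by -1.57 ± 0.597 (adjusted p = 0.25), Igtp by -1.21 ± 0.431 (adjusted p = 0.19), Irgm2 by -0.76 ± 0.527 and Irgm1 by -0.42 ± 0.424, none past the threshold. Compared with untreated cultures, those with LPS_lo and resveratrol still held Irgm1, Irgm2, Igtp and Ifi47 at called levels, by 1.61 to 2.14 on the log2 scale (background 3.26% higher and 6.69% lower), and Iigp1 was at 1.15 ± 0.468 (adjusted p = 0.089). When the 2 groups were fitted alone the calls of Iigp1 (adjusted p = 0.071) and Tgtp2 (adjusted p = 0.084) were lost and Igtp was called (adjusted p = 0.012), and the Iigp1 call was also lost with a pseudocount of 0.25 (adjusted p = 0.079). Rapamycin, an mTOR inhibitor, gave no member call beside LPS_lo in limma and no member at an unadjusted p under 0.05 (background 0.1% higher and 0.0709% lower), with a difference of -0.40 ± 0.646 for Iigp1.

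At 72 h the 2 LPS doses parted for Iigp1 and Tgtp. With LPS_lo (n = 11) Iigp1 ran from 4.7 to 87.7 CPM (median 60) and Tgtp1+Tgtp2 from 1.15 to 92.7 CPM (median 32.4). With LPS_hi (n = 13) Iigp1 ran from 0.219 to 76.8 CPM (median 10.9) and Tgtp1+Tgtp2 from 0 to 35 CPM (median 2.84). The higher dose therefore carried the lower medians, with overlapping ranges. Between the doses Iigp1 differed by -2.14 ± 0.495 (adjusted p = 0.0015) and Tgtp1+Tgtp2 by -2.37 ± 0.466 (adjusted p = 9.8e-05), where 0.443% of genes were called higher and 4.43% lower with LPS_hi. Within the 3 plates that held both doses the Iigp1 difference ran from -3.42 to -1.76 and that of Tgtp1+Tgtp2 from -2.45 to -1.79. Irgm1 differed by 0.13 ± 0.336 and Igtp by 0.24 ± 0.341, and Ifi47 was called lower with the 2 groups alone (-1.17, adjusted p = 0.029). Irgm2 stood 1.75 above untreated cultures with LPS_hi and 2.64 with LPS_lo, and was not called between the doses. Within the 3 plates the difference between doses ran from -0.38 to 0.26 for Irgm2, from -0.78 to -0.32 for Irgm1 and from -0.67 to 0.22 for Igtp. Among the 7 members 4 had an unadjusted p under 0.05 between the doses in limma. The LPS_hi effect on Tgtp1+Tgtp2 was itself smaller at 72 h than at 24 h, with a difference of effects of -2.50 ± 0.505 (adjusted p = 8e-05, background 1.93% higher and 3.19% lower), and the same test gave -1.33 ± 0.537 for Iigp1 (adjusted p = 0.12) and 0.26 ± 0.364 for Irgm1 (adjusted p = 0.79). For IFNg no member was called between the times by limma, and none had an unadjusted p under 0.05 (background 1.14% higher and 2.59% lower).

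Norepinephrine, a catecholamine that acts on microglial beta-adrenergic receptors, was added to LPS_lo for 72 h in 3 cultures on a single plate. Iigp1 read 4.62, 0.0751 and 3.40 CPM in them and Tgtp1+Tgtp2 read 0.691, 1.05 and 0.121 CPM, below all 11 LPS_lo cultures. Iigp1 fell by 4.04 ± 0.787 on the log2 scale (adjusted p = 0.00041) and Tgtp1+Tgtp2 fell by 4.30 ± 0.741 (adjusted p = 2.1e-05), where 0.189% of genes were called higher and 0.354% lower. Without replicate 2 the Iigp1 difference was -3.31 and its adjusted p 0.12. Irgm1 read 38.7, 24.7 and 36.8 CPM, Igtp 108, 71.5 and 94.3 CPM and Ifi47 156, 105 and 92.6 CPM. Their differences of -0.83 ± 0.534, -0.73 ± 0.542 and -1.79 ± 0.752 missed the threshold, apart from Ifi47 with the 2 groups alone (adjusted p = 0.0014), and all 3 genes were called higher than in untreated cultures (background 1.13% higher and 0.555% lower). Irgm2, the remaining regulator, was called neither against LPS_lo alone nor against untreated cultures. Within the plate that held both groups it differed from LPS_lo alone by -1.22.

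IL4, IL10 and IL13 are cytokines that turn macrophages away from inflammatory activation. Their combination with LPS_lo for 72 h lowered 4 members when Tgtp1+Tgtp2 is counted once, against 1.95% of genes called higher and 3.18% lower. Iigp1 read 1.66, 1.65, 2.54, 25.9 and 12.4 CPM and Tgtp1+Tgtp2 read 1.29, 1.36, 0.545, 38.1 and 8.24 CPM in the 5 cultures. The first 3 of these came from a plate that also held LPS_lo alone, and the last 2, with higher values, from another. The log2 differences were -3.00 ± 0.652 for Iigp1 (adjusted p = 0.00032), -2.64 ± 0.613 for Tgtp1+Tgtp2 (adjusted p = 0.00099), -1.93 ± 0.55 for Irgm2 (adjusted p = 0.013) and -1.54 ± 0.449 for Igtp (adjusted p = 0.017). Irgm1 read 17.5, 27.1, 10.4, 194 and 309 CPM, with a difference of -0.23 ± 0.442 over both plates and -1.47 within the shared plate. A difference between the plates was not tested. Ifi47 differed by -1.85 ± 0.622 (adjusted p = 0.052). With the 2 groups alone Ifi47 was called (adjusted p = 7e-05). The Irgm2 call was lost with plate as a factor (adjusted p = 0.12) and without replicate 3 (adjusted p = 0.056), and the Igtp call was lost without replicate 1, without replicate 5 and without cultures under 2 M reads. Added singly to LPS_lo, IL4 (background 0.809% higher and 1.07% lower), IL10 (0.425% and 1.91%) and IL13 (0.0827% and 0.059%) gave no member call in the reported limma fit, with 1, 1 and 0 members at an unadjusted p under 0.05 and Iigp1 at -0.86 ± 0.652, -0.90 ± 0.652 and -0.53 ± 0.652. These comparisons share their LPS_lo cultures with that of norepinephrine.

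IFNg added to LPS_lo for 72 h raised the members above LPS_lo alone, with 1.19% of genes called higher and 1.31% lower. Iigp1 ran from 325 to 564.2 CPM in the 7 cultures (median 462), Tgtp1+Tgtp2 from 150 to 431 CPM (median 379) and Igtp from 809 to 1377 CPM (median 1064). Log2 rises were 3.20 ± 0.584 for Iigp1, 3.30 ± 0.55 for Tgtp1+Tgtp2, 2.75 ± 0.403 for Igtp, 1.75 ± 0.396 for Irgm1 and 1.60 ± 0.493 for Irgm2. Ifi47 differed by 1.62 ± 0.558 (adjusted p = 0.1) and was called with plate as a factor (1.66, adjusted p = 0.034) and with the 2 groups alone. The Irgm2 call was lost with a pseudocount of 0.25 (adjusted p = 0.13). TNFa with IFNg gave Iigp1 from 435 to 905 CPM (n = 8) and gave no member call against IFNg alone in limma, with 1 member at an unadjusted p under 0.05 (background 3.82% higher and 1.66% lower).

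TNFa alone for 72 h, in 3 cultures on a single plate, went with lower Ifi47, Igtp and Irgm2, against 11.2% of genes called higher and 16.5% lower. Their estimated depths were 1.98, 1.98 and 2.36 M reads. No member was called with TNFa at 24 h, where 245 of 16935 genes were called higher and 260 lower. None was called with TNFa + PGE2 or TNFa + P3C + PGE2 at 72 h, with 0 and 2 members at an unadjusted p under 0.05 in limma. For these mixtures only the shares pooled over all 95 conditions are given, further below. With TNFa alone for 72 h Ifi47 read 4.05, 0 and 2.12 CPM and Igtp read 4.05, 1.51 and 1.70 CPM, where the 25 untreated cultures at 72 h had medians of 35.3 and 23.6 CPM. The log2 differences were -3.16 ± 0.705 for Ifi47, -2.87 ± 0.509 for Igtp and -1.59 ± 0.623 for Irgm2. Irgm2 itself read 1.53, 32.3 and 0.461 CPM, so 1 of the 3 cultures lay above the untreated median of 20.6 CPM.

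IFNb on top of TNFa, P3C and prostaglandin E2 (PGE2) for 72 h raised the regulators and Ifi47, and Iigp1 and Tgtp were not called in the reported fit. Irgm1 ran from 42.1 to 62.8 CPM with IFNb against 2.78 to 7.17 CPM without it (n = 7 each), and Igtp from 110 to 302 CPM against 0.894 to 59.3 CPM, without overlap. The log2 rises were 3.05 ± 0.438 for Irgm1, 3.59 ± 0.545 for Irgm2, 3.10 ± 0.445 for Igtp and 2.99 ± 0.617 for Ifi47, where 1.94% of genes were called higher and 1.41% lower. Iigp1 ran from 0.132 to 22.7 CPM (median 11.8), a difference of 1.54 ± 0.646 (adjusted p = 0.2) that was called with plate as a factor (1.70, adjusted p = 0.041), and Tgtp1+Tgtp2 from 0 to 40.6 CPM (median 7), a difference of 1.16 ± 0.608 (adjusted p = 0.38). IFNb alone for 72 h read 138, 161, 87.9 and 115 CPM of Iigp1 in its 4 cultures and ran from 109 to 137 CPM of Tgtp1+Tgtp2, and the difference between those cultures and the 4-agent mixture was not tested.

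The interferons alone raised the members at 72 h as well. With IFNg the members ran from 4.52 ± 0.463 (Irgm2) to 8.22 ± 0.55 (Iigp1) above untreated on the log2 scale, all called in limma (background 4.29% higher and 8.53% lower). The exact rank-sum test called all of them but Tgtp1. With IFNa Iigp1 ran from 23.3 to 132 CPM (median 81.3, n = 7) and rose by 4.54 ± 0.517, and 6 members were called (background 2.85% higher and 4.63% lower). Of these the exact rank-sum test called Igtp, Iigp1 and Tgtp2. With IFNb 6 members were called too, from 3.17 ± 0.448 for Igtp to 5.58 ± 0.612 for Tgtp1+Tgtp2 (background 3.58% higher and 0.862% lower). IFNg exceeded IFNa at 72 h in all 7 members (background 2.78% higher and 4.15% lower), by 3.67 ± 0.673 for Iigp1 and 1.72 ± 0.567 for Irgm2. It exceeded IFNb in Iigp1, Igtp, Irgm1 and Tgtp1 (background 2.13% higher and 5.85% lower), and the sum of Tgtp1+Tgtp2 differed by 2.02 ± 0.734 (adjusted p = 0.063). Poly(I:C) at 72 h raised 6 members by 1.56 ± 0.379 (Igtp) to 2.48 ± 0.525 (Ifi47) on the log2 scale (background 2.8% higher and 5.96% lower), but on its 2 plates the Ifi47 difference was -0.25 and 5.19. With the 2 groups alone Irgm1 alone stayed called, the others having adjusted p from 0.077 to 0.12, and the exact rank-sum test called none, although 6 cultures against 25 can pass its threshold. P3C at 72 h gave no call in limma or in the exact rank-sum test, with 3 members at an unadjusted p under 0.05 in limma (background 4.81% higher and 2.57% lower). Without cultures under 2 M reads Irgm2 (1.32, adjusted p = 0.032) and Ifi47 (1.57, adjusted p = 0.029) were called higher with P3C at 72 h.

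Across the whole panel the members were called higher where an interferon, LPS or poly(I:C) was present and seldom elsewhere. Pooled over the 95 conditions compared with untreated cultures of 24 h or 72 h, 2.29% of gene tests were called higher and 3.96% lower. Of these conditions 14 had all 7 members called higher, 30 had 5 or more, and 53 had no member called in either direction. All 30 conditions with 5 or more contained an interferon, LPS or IC. The exceptions to that rule with at least 1 higher call were Igtp with TNFa + P3C at 72 h, by 1.14 ± 0.356 (background 6.34% higher and 9.2% lower), and Irgm1 with GABA at 72 h, by 1.15 ± 0.333 (background 2.19% higher and 4.03% lower). Lower calls appeared in 7 conditions, among them Ifi47 with the neurotoxin MPP at 24 h (-1.39 ± 0.447, background 2.93% higher and 1.79% lower) and with valproic acid at 24 h (-2.15 ± 0.505, 2.75% and 3.17%), Igtp with IL4 at 72 h (-1.65 ± 0.509, 2.5% and 1.07%) and Irgm2 with IL13 at 72 h (-1.47 ± 0.463, 2.2% and 1.38%). By gene, higher calls numbered 35 for Irgm1, 34 for Igtp and for Ifi47, 32 for Irgm2, 30 for Iigp1 and for Tgtp2, and 14 for Tgtp1, out of 95. In 4 conditions that contained LPS or IFNb, Iigp1 and Tgtp2 were not called although at least 2 other members were: LPS_lo with resveratrol, with norepinephrine or with IL4 + IL10 + IL13, and TNFa + P3C + PGE2 + IFNb. In no condition was the reverse seen, with Iigp1 called higher and Irgm1 not.

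**Figure D3:**
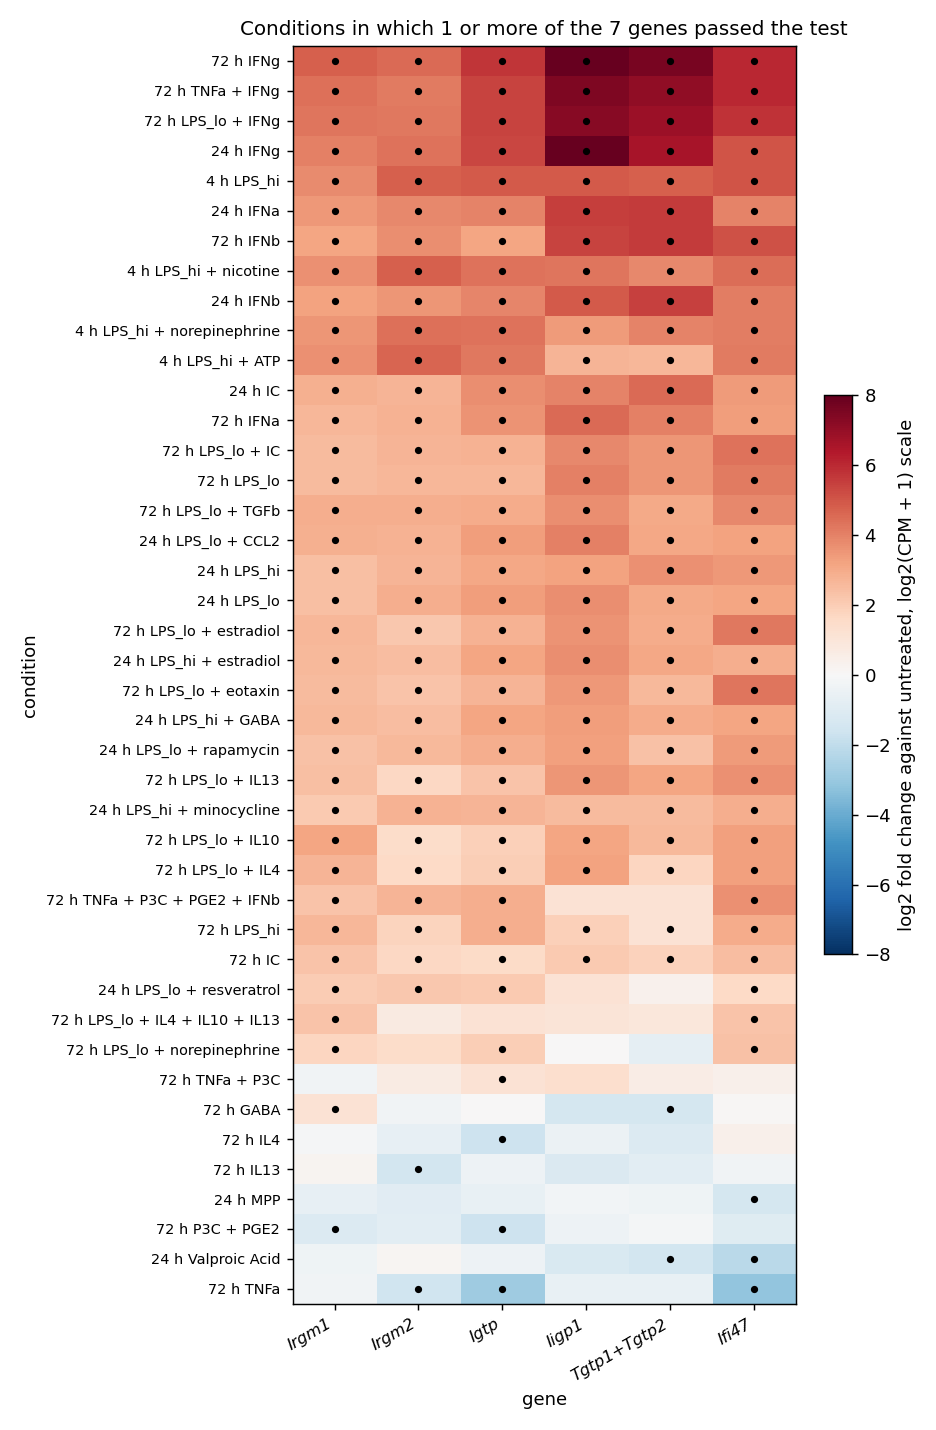
Log2 difference from untreated cultures of the same time (24 h untreated for 4 h) for each member, Tgtp1 and Tgtp2 as their sum, in the conditions with at least 1 called gene, with dots on called values. Rows with an interferon, LPS or IC are red in nearly all columns, and the rows with resveratrol, norepinephrine at 72 h and IL4 + IL10 + IL13 are pale for Iigp1 and Tgtp1+Tgtp2.

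Over 97 condition means the closest pair of members was Iigp1 and Tgtp2 (Pearson r = 0.975), followed by Irgm2 and Igtp (0.949), which share sequence and overlap, and Irgm1 and Igtp (0.941). The lowest values, from 0.684, involved Tgtp1. Over the same means and the genes of the 16935 that are not members, the genes most like Irgm1 were Msh4 (0.939), Tap1 (0.936) and Gbp3 (0.927), and those most like Irgm2 were Tap1 (0.940), Trafd1 (0.939) and Gbp3 (0.935). Igtp lay closest to Gbp3 (0.943), Samhd1 (0.942) and Tap1 (0.941), and Ifi47 to Tap1 (0.934), Gbp3 (0.930) and Samhd1 (0.927). Iigp1 lay closest to Samhd1 (0.937), Gbp2 (0.936) and Gm4951 (0.934), and Tgtp2 to Gbp2 (0.921), Samhd1 (0.914) and Gm4951 (0.914). Tap1 moves peptides into the endoplasmic reticulum for antigen presentation, Gbp2 and Gbp3 are guanylate-binding proteins and Samhd1 is a deoxynucleotide hydrolase. These are descriptions over conditions that share plates and untreated wells.

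The partners of the IRGs moved with them at 24 h. Of the guanylate-binding proteins, which join IRGs at the vacuole, 6 of 6 that passed the filter were called higher with IFNg, IFNb, LPS_hi and IC, 5 of 6 with IFNa and 1 of 6 with P3C. With IFNg Gbp2 rose by 6.82 on the log2 scale and Gbp5 by 5.75. The median difference with IFNg was 5.68 over these 6 genes and 5.02 over the 7 members, beside -0.04 over all 16935 genes tested. Of the transcription factors Irf1, Irf8, Irf9 and Stat2, 3 were called higher with IFNg, Irf1 by 4.40, Irf8 by 2.17 and Stat2 by 1.20, and 3 with IFNb, where Stat2 rose by 3.46 and Irf8 was at -0.29. Irf8, which shapes microglial identity, fell by 1.30 with LPS_hi. Of 4 feedback inhibitors all were called higher with IFNg, led by Socs1 (6.66), and all with LPS_hi, led by Socs3 (5.51). With P3C Socs1 (2.73) and Socs3 (4.27) were called higher while none of these 4 factors was. None of 7 receptors and kinases was called with IFNg, among them Ifngr1 (-0.74) and Jak2 (0.60). Of 12 genes of the ubiquitin-like conjugation machinery that targets IRGs and guanylate-binding proteins to vacuoles, Trim21 alone was called with IFNg, by 2.02, and Atg5 stood at 0.22. Of 9 other genes of the IRG family 7 were called higher with IFNg, led by Gm4951 (4.71), F830016B08Rik (4.52) and Gm4841 (4.08), and 7 with IFNb, where Gm4841 was at 0.80 and not called.

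In LPS-injected mice the effectors rose and the regulators did not pass the threshold, though a difference between regulators and effectors was not tested. Ifi47 read 22.2, 16.7, 23.9 and 25.8 CPM in the 4 PBS mice and 107, 209, 183 and 168 CPM in the 4 LPS mice. Iigp1 read 0.785, 1.03, 2.57 and 1.45 CPM with PBS and 6.3, 16.7, 14 and 10.7 CPM with LPS. Tgtp1+Tgtp2 read 1.18, 1.73, 2.37 and 4.49 CPM with PBS and 7.71, 16.4, 18.2 and 11.3 CPM with LPS. For all 3 every LPS mouse lay above every PBS mouse. The log2 rises were 2.83 ± 0.203 for Ifi47 (adjusted p = 1.1e-07), 2.37 ± 0.355 for Iigp1 (adjusted p = 0.00023) and 2.08 ± 0.351 for Tgtp1+Tgtp2 (adjusted p = 0.00065), in a limma fit over 9012 genes in which 8.79% were called higher and 13.6% lower at an adjusted p under 0.05. Tgtp1 alone did not pass the filter on low values in mice, and the median difference over the other 6 members was 1.38, beside -0.19 over all genes tested.

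Irgm2 read 161, 125, 153 and 77.8 CPM with PBS and 96.9, 98.1, 176 and 116 CPM with LPS, a difference of -0.08 ± 0.232 (adjusted p = 0.84). Igtp read 55.7, 62.2, 74.4 and 66.4 CPM with PBS and 86.5, 102, 83.4 and 72.9 CPM with LPS, a difference of 0.41 ± 0.149 (adjusted p = 0.065). Irgm1 read 10.9, 4.82, 9.9 and 11.5 CPM with PBS and 14.6, 15.7, 15.7 and 13.2 CPM with LPS, a difference of 0.68 ± 0.257 (adjusted p = 0.073). The groups overlapped for Irgm2 and Igtp and were separate for Irgm1. After rescaling by the median ratio, which moved the median of all genes from -0.19 to -0.03 and the calls from 792 higher and 1225 lower to 1034 and 560, Irgm1 (0.84, adjusted p = 0.031) and Igtp (0.58, adjusted p = 0.012) were called as well, and Igtp also without LPS mouse 4 (0.48, adjusted p = 0.047). The summed neutrophil markers ran from 50.9 to 116 CPM in PBS mice and from 116 to 220 CPM in LPS mice, with none of the 4 markers at a median of 0 in either group, and those of natural killer cells from 0.196 to 3.76 and from 3.86 to 10.6 CPM. With the neutrophil sum as a covariate Ifi47 was still called, and Iigp1 (1.75, adjusted p = 0.12) and Tgtp2 (2.19, adjusted p = 0.064) were not. In such bulk samples more cells of a type and more RNA per cell cannot be told apart. Ifnb1 was above 0 in 3 of 4 LPS mice (median 1.45 CPM) and in no PBS mouse.

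Among the other pathway genes in LPS mice 3 of the same 4 transcription factors were called higher, led by Irf1 (2.60) and Stat2 (1.55), and 4 of 5 guanylate-binding proteins, led by Gbp5 (3.94) and Gbp2 (3.05). All 4 inhibitors were called higher, led by Socs3 (4.70). Of the 4 other IRG genes measured none rose and 9930111J21Rik2 fell by 0.90 on the log2 scale. In the conjugation list Traf6 (1.19) and Sqstm1 (0.63) were called higher of 12.

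**Figure D4:**
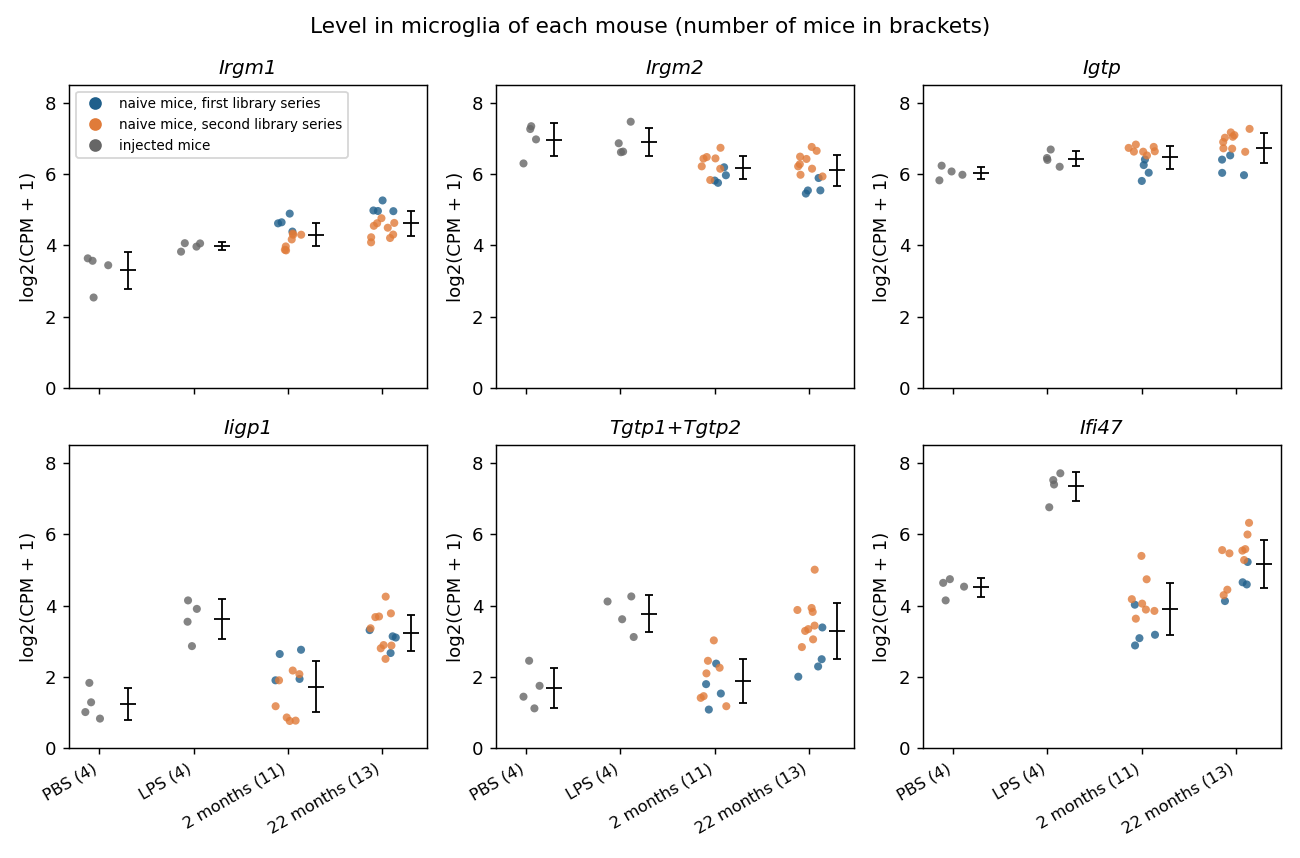
CPM of the members in single mice on a log2(CPM + 1) axis, with PBS and LPS mice on the left of each panel and mice of 2 and 22 months on the right, the latter coloured by library series, and bars at the mean ± SD. Iigp1, Tgtp1+Tgtp2 and Ifi47 lie higher in LPS than in PBS mice without overlap and higher at 22 than at 2 months with overlap, and Irgm2 overlaps in both comparisons.

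At 22 months the effectors were again called higher and the regulators were not, and the difference between them was again not tested. Iigp1 ran from 0.704 to 5.8 CPM in the 11 mice of 2 months (median 2.76) and from 4.7 to 18.1 CPM in the 13 of 22 months (median 7.83). Tgtp1+Tgtp2 ran from 1.13 to 7.16 CPM (median 2.49) and from 3.03 to 31.2 CPM (median 9.15), and Ifi47 from 6.39 to 41.1 CPM (median 13.8) and from 16.5 to 79.1 CPM (median 37.9). The age groups overlapped for each of them. Iigp1 was higher at 22 months by 1.51 ± 0.253 on the log2 scale (adjusted p = 0.00045), Tgtp1+Tgtp2 by 1.41 ± 0.286 (adjusted p = 0.0037) and Ifi47 by 1.26 ± 0.27 (adjusted p = 0.0066), in a fit over 9632 genes of which 2.5% were called higher and 0.737% lower. Irgm1 ran from 13.5 to 28.7 CPM and from 16 to 37.4 CPM, Irgm2 from 53 to 106 CPM and from 42.9 to 108 CPM and Igtp from 55.1 to 113 CPM and from 61.7 to 153 CPM. Their differences were 0.31 ± 0.146 (adjusted p = 0.33), -0.08 ± 0.153 (adjusted p = 0.92) and 0.25 ± 0.151 (adjusted p = 0.52). With library series as a factor Irgm1 was called too, at 0.35 (adjusted p = 0.029). The exact rank-sum test with Bonferroni adjustment called no member (adjusted p = 0.054 for Iigp1), although 13 mice against 11 can pass its threshold.

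The aged and young mice were sequenced in 2 library series, the first with 4 mice of each age and the second with 9 aged and 7 young mice. The difference for Iigp1 was 0.74 in the first series and 1.92 in the second, where all 9 aged mice lay above every young mouse. For Tgtp1+Tgtp2 it was 0.85 and 1.64, and for Ifi47 1.35, with all 4 aged mice of the first series above every young one, and 1.14. Among the regulators the differences were -0.33 and -0.01 for Irgm2 and 0.11 and 0.27 for Igtp. For Irgm1 they were 0.40, with all 4 aged mice of the first series above every young one, and 0.32. The means of all 3 effector readings were higher in the aged mice of both series. The neutrophil markers summed to 112 to 953 CPM at 2 months (median 452) and 262 to 2795 CPM at 22 months (median 923), with none of the 4 at a median of 0, T-cell markers had medians of 7.41 and 18.3 CPM and monocyte markers of 53.6 and 115 CPM. With the neutrophil sum as a covariate Ifi47 was not called (1.07, adjusted p = 0.077), and Iigp1 and Tgtp2 were. Of the pathway genes Usp18 (1.28) and Gbp2 (1.09) were called higher at 22 months, and no receptor, kinase, conjugation gene or other IRG gene was called.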

How the data were processed

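Microglial RNA was read by 3′-end sequencing (Quantseq, after T7 amplification) in 784 cultures and 32 mice. The authors quantified reads with Salmon 0.7.1, as the submitters' processing notes and the study's methods state, summed them by gene and deposited values per 1000000 mapped reads. The study calls these TPM, but no division by length is described and the values step as CPM do, so the deposited unit was taken as CPM. The methods name Ensembl build 81 and the processing notes mm8, and the gene positions given here come from GENCODE for GRCm38. Whole reads could not be recovered for nearly all genes, so no count test was run.

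Members, gene lists and tests were chosen with earlier results of these data known. The named genes are the 7 members in every comparison, the listed pathway genes, and for each member the 3 genes with the highest Pearson correlation over condition means. CPM were taken as log2(CPM + 1), genes above 5 CPM in at least 4 samples (11 in the aging mice) were kept, and limma 3.58.1 (R 4.3.3) was fitted across all kept genes with Benjamini-Hochberg adjustment: 1 fit of 783 cultures in 97 conditions and 1 fit each for LPS and aging mice. A single culture labelled LPS_hi at the low dose was left out. A call needed an adjusted p under 0.05 and, in cultures, a log2 difference of at least 1. Scripts were tested on simulated data. The alternatives were a pseudocount of 0.25, no filter, rescaling by the median ratio, plate or library series as a factor, the 2 groups alone, an exact rank-sum test with Bonferroni adjustment, leaving out replicates or cultures under 2 M reads (M stands for 1000000), and a neutrophil covariate. The pathway lists were the guanylate-binding proteins, transcription factors, inhibitors, receptors and kinases, the conjugation machinery, other IRG genes and interferon ligands, of which only Ifnb1 passed the filter. One listed transcription factor is not reported here. Markers of natural killer cells, T cells, B cells, neutrophils, monocytes, perivascular macrophages, fibroblasts, endothelial cells, neurons, astrocytes and oligodendrocytes were summed per sample. Depth was estimated from the most frequent low value of a sample, taken as 1 read. In a culture 69.9% to 89.1% of the low values checked lay near a whole multiple of it.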

Additional observations from a re-analysis of the deposited data

Results flagged for a closer look

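Among 144 sets of 4 to 10 samples, 15 held a sample that stood apart from the rest of its group, where chance alone gives about 5%. The figure given for each is the gap to the nearest other sample as a share of the whole range of the group. Of the 15, 5 belong to 24 h IC replicate 5, the culture nearer to P3C than to the other IC cultures: it was the lowest for Igtp (0.803, at 33.3 CPM where the other 7 ran from 297 to 505 CPM), Ifi47 (0.784), Iigp1 (0.712), Tgtp1+Tgtp2 (0.662) and Irgm2 (0.652). Its estimated depth was 11.3 M reads (M stands for 1000000), so it was not a shallow library.

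In 72 h P3C replicate 6, Irgm2 (0.784) and Tgtp1+Tgtp2 (0.736) were the lowest of 6 and Ifi47 was the highest (0.785), at 146 CPM where the others ran from 40.8 to 53.7 CPM. The highest of a group were also Igtp in 72 h LPS_lo + IL10 replicate 5 (0.912), at 293 CPM beside 58.5 to 67.4 CPM, and Iigp1 in 72 h TNFa + IFNg replicate 8 (0.663), at 905 CPM beside 435 to 556 CPM. The lowest of a group were Igtp in 24 h IFNa replicate 5 (0.596), Iigp1 in 24 h IFNb replicate 10 (0.493), Irgm1 in 24 h P3C replicate 4 (0.714), Irgm1 in 72 h IFNa replicate 4 (0.790) and Igtp in 72 h TNFa + P3C + PGE2 replicate 7 (0.717). The IFNb and 72 h IFNa cultures had 1.80 and 1.67 M reads.

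The effect of LPS_hi differed between 72 h and 24 h for Tgtp1+Tgtp2, by -2.50 on the log2 scale, and for Tgtp2 alone, by -2.58, in a test of the difference of effects by limma. Each effect was taken against untreated cultures of its own time, the plates of the 2 times hardly overlapped, and with plate as a factor the difference was -2.40 for Tgtp2 (adjusted p = 1.3e-05).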

How the results depend on the processing

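Counts of called members kept within 1.5 times their reported value under most alternatives. In 24 h single stimuli 43 calls became 33 to 45, between IFNg and the type I interferons 6 became 5 to 7, and in 4 h LPS_hi 7 became 6 or 7. In the 72 h conditions 112 calls became 44 with the exact rank-sum test and Bonferroni adjustment, and 91 to 113 otherwise (112 to 112 leaving out an IFNb replicate). Of the 68 calls lost there, 33 lay in groups too small for its smallest p to pass the threshold and 35 did not. Between LPS combinations and LPS alone 27 became 0 with the rank-sum test, 26 of them in groups too small for it, and 20 to 30 otherwise (26 to 27 leaving out a replicate). In LPS mice 3 became 5 after rescaling and 1 with the neutrophil covariate (3 to 4 leaving out a mouse). In aging mice 3 became 0 in the first library series alone, which has fewer mice and where Tgtp2 did not pass the filter. They became 0 with the rank-sum test as well, although 13 mice against 11 can pass its threshold. The cause of the other changes was not tested. No paired analysis was possible because the labels carry no replicate numbers.

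Directions turned only for differences that were never called. With plate as a factor these were Iigp1 with P3C at 72 h (-0.17), Irgm1 with P3C at 24 h (0.13), Irgm2 (-0.40) and Igtp (-0.048) between IFNa and IFNb, Tgtp1 with LPS_lo + IL4 + IL10 + IL13 (-0.0048), Irgm1 between the LPS doses at 72 h (-0.14), and the 72 h minus 24 h effects of IFNg on Irgm2 (-0.25) and of LPS_hi on Irgm1 (-0.12). After rescaling they were Irgm1 with P3C at 24 h (0.23) and with LPS_lo + rapamycin (0.073), Ifi47 between TNFa + IFNg and IFNg (-0.029) and Irgm2 in LPS mice (0.10). Without cultures under 2 M reads they were Irgm1 with P3C at 24 h (0.0096) and Ifi47 between TNFa + IFNg and IFNg (-0.087). Leaving out a replicate turned Irgm1 with LPS_lo + IL4 + IL10 + IL13 (range -0.87 to 0.32) and Irgm2 in LPS mice (range -0.30 to 0.049). Depth limits the low genes: at 1 M reads a single read is worth about 1 CPM, near the level of Iigp1 and Tgtp in untreated cultures.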
